A study of Mus musculus with 4 samples.

Results

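The Hist1 cluster holds most of the mouse genes for replication-dependent histones, and its accessible sites were described here in mouse embryonic stem cells positive or negative for MERVL and Zscan4c. Members were chosen by position alone. They are the ATAC-seq peaks of 4 deposited peak lists whose midpoint lies on chromosome 13 of the mm9 build at 21.75 to 22.2 Mb (window 1) or 23.45 to 23.95 Mb (window 2). Peaks that shared at least 1 bp were merged across the lists, which gave 106 Hist1 regions, 42 in window 1 and 64 in window 2, of 50231 regions in the whole series. The 1.25 Mb between the windows held 28 regions and served as the comparison.

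The libraries came from J1 embryonic stem cells, a line of the 129SV strain, grown without feeders on gelatin in 15% serum with 1000 units/mL leukemia inhibitory factor. The DR+/+ group is the MERVL+/Zscan4c+ population and the DR-/- group the MERVL-/Zscan4c- population, with 2 libraries each. MERVL is an endogenous retrovirus and Zscan4c a gene of the early embryo, and cells expressing both are likened to the totipotent early embryo. In ATAC-seq the transposase Tn5 inserts adapters into open DNA, and a peak marks a site with more insertions than its surroundings. The labels give neither how the populations were separated nor whether a group's libraries are separate cultures, and p-values then measure only the spread between libraries, which may be technical. Where 4 values are given in a row, they follow the order DR+/+ replicate 1, DR+/+ replicate 2, DR-/- replicate 1, DR-/- replicate 2, and within a population replicate 1 comes first. All 4 libraries come from 1 cell line, and its identity was not checked against marker loci, because no gene annotation of mm9 was used.

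Replication-dependent histone genes are transcribed in S phase, when new DNA has to be packed into nucleosomes. They are short, mostly without introns, and their mRNAs end in a stem-loop in place of a poly(A) tail. H2A, H2B, H3 and H4 form the protein core of the nucleosome and H1 binds the linker DNA between nucleosomes. The genes lie in clusters and are transcribed in a nuclear compartment called the histone locus body. The vomeronasal type 1 receptors (Vmn1r genes), which lie between the histone genes, encode pheromone receptors of sensory neurons.

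In the RefSeq gene table of GRCm38.p6, used here for names and gene order only, 55 genes of chromosome 13 with a Hist1h name lie in 2 blocks. The first block runs from H2bc13 to H2bc11 and holds 24 histone genes, 1 of them for H1, 8 each for H2A and H2B, 2 for H3 and 5 for H4. Of these 24 entries, 1 is annotated as a pseudogene. The second runs from H4c8 to H2ac1 and holds 31, of which 5 encode H1, 6 H2A, 7 H2B, 7 H3 and 6 H4. Between the blocks lie 75 Vmn1r entries (36 protein-coding, 39 pseudogenes) and 46 tRNA genes. This run also holds 5 other protein-coding genes (Gm11295, Zfp322a, Abt1, Btn1a1 and Btn2a2). The blocks are not purely histone genes. The first also holds 31 tRNA genes and 3 other protein-coding genes (Zfp184, Pom121l2 and Prss16), and the second Hfe, Trim38 and 4 Slc17a transporter genes. Because the table's build differs from that of the peaks, no region was assigned to a gene, and the part of the tRNA genes in the regions was not tested.

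The promoters of the 5 histone classes show the sequence that an accessible histone gene start would expose. For each class the 150 bases before the start of the first gene in chromosome order are given, 5′ to 3′ on the strand of the gene, from RefSeq on GRCm38.p6. Capitals mark the TATA box (TATAAA), the CCAAT box (CCAAT) and the GC box (GGGCGG), each on either strand. The octamer known from H2B promoters (ATTTGCAT) was searched as well and is absent from these 5 windows.
H1f5: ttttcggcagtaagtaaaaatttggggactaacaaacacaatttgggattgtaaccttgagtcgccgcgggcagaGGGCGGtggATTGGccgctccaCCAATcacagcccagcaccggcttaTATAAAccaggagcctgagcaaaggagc
H2ac13: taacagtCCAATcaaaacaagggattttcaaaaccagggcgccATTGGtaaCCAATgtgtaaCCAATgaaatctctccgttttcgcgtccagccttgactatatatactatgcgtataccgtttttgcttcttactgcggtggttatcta
H2bc13: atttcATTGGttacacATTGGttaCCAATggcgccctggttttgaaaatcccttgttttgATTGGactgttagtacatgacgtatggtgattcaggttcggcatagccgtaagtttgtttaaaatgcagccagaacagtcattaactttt
H3c10: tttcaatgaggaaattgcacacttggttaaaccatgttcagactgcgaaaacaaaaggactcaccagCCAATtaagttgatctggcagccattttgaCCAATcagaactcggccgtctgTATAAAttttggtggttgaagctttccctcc
H4c11: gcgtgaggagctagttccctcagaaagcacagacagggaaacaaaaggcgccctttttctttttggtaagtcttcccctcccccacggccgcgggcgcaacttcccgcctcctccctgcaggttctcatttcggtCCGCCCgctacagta
H2bc13 and H2ac13 are transcribed away from each other, and their starts lie 229 bp apart, so both sequences show parts of the same DNA on opposite strands. Of the histone genes with a promoter entry, 10 pairs of an H2A and an H2B gene were arranged in this way, with starts 164 to 281 bp apart. For comparison, the median width of the regions present in all 4 lists was 227 to 309 bp.

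Promoter entries were found for 51 of the 55 genes, and the 250 bases before the start were searched. A CCAAT box was found in 43 of 51 Hist1 promoters (84.3%) against 33.8% of all 32851 promoters. It was present in all 6 H1, 13 H2A, 14 H2B and 7 H3 promoters but in only 3 of 11 H4 promoters. A TATA box was found in 26 (51.0% against 12.4%). The Hist1 promoters had a median GC content of 44.8%, against 52.4% over all promoters. The part of base content in the motif counts was not tested. The octamer was found in 6 of 14 H2B and 5 of 13 H2A promoters and in none of the other classes. This was 21.6% of all Hist1 promoters against 1.6% of all promoters. In the 10 pairs of an H2A and an H2B gene with starts 164 to 281 bp apart, the 250 bases searched overlap. The same site can therefore count for both genes of a pair. For every motif, the H2A and H2B counts and the Hist1 shares that include them are not counts of separate sites. Which gene of a pair a shared octamer belongs to was not tested. A GC box was found in 15 Hist1 promoters, a share close to that of all promoters (29.4% against 32.7%). The classes differed, with 8 of 11 H4, 4 of 6 H1, 3 of 13 H2A, 0 of 14 H2B and 0 of 7 H3 promoters. Copies of a histone gene can be nearly identical. Of the 10945 start positions of words of 50 bases in the Hist1 promoter entries (300 bases, 50 of them after the start), 1032 (9.43%) held a word found at another Hist1 position too. These lay in 8 genes, H2ac23, H2ac24, H2bc23, H4bc24, H4c11, H4c12, H4c17 and H4c18, all of the first block. The reads were 50 bp long, and the treatment of reads that fit several places was not stated in the labels, and its part in the values of these copies was not tested.

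Both Hist1 windows were packed with accessible sites in every library. Window 2 held 55 and 38 regions in the DR+/+ libraries and 30 and 37 in the DR-/- libraries. Window 1 held 40, 28, 23 and 28 regions in the same order. DR+/+ replicate 1, whose list is by far the longest, had the most regions in both windows, and the other DR+/+ library lay close to DR-/- replicate 2. Per Mb this came to 100.0, 69.5, 55.8 and 68.4 regions over both windows, with exact 95% Poisson intervals of 80.9 to 122, 53.7 to 88.4, 41.8 to 73.0 and 52.8 to 87.2. These intervals cover counting error only.

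Few stretches of the genome were as dense. Chromosomes 1 to 19 and X were cut into 5268 tiles of 500 kb, the length of window 2. The median tile held 8 regions of the union of the 4 lists and the 95th percentile was 21, against 64 in window 2, and 0 of the tiles reached that number. In the single lists 0 tiles matched window 2 in DR+/+ replicate 1, and 1 tile, which lay outside the Hist1 windows, did in each of the other 3 libraries. Among 5852 tiles of 450 kb, the length of window 1, the median was 7, and 4 tiles, 1 of them overlapping the Hist1 windows, held the 42 regions of window 1 or more. These windows were placed around known genes and the tiles on a fixed grid, so the ranks are a description.

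**Figure D1:**
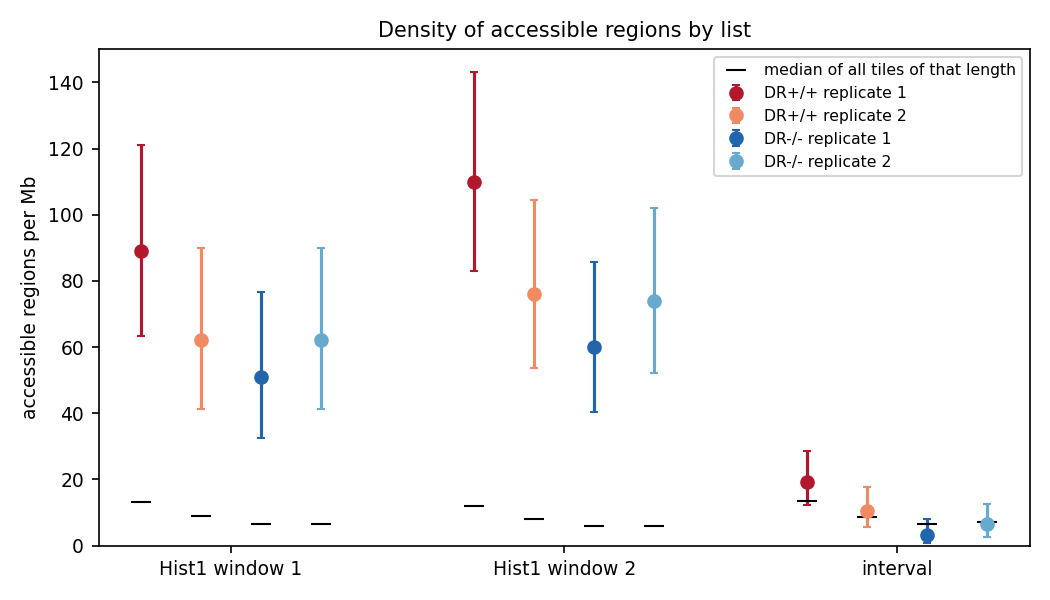
Accessible regions per Mb (y axis) in Hist1 window 1, Hist1 window 2 and the interval between them, for each of the 4 libraries. Points are the density, bars exact 95% Poisson intervals, and black dashes the median density of all tiles of the same length in that list. All 4 libraries lie far above the dashes in both windows, and near them in the interval.

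The interval rich in Vmn1r genes had far fewer regions, though it was not empty by the standard of the genome. It held 24 and 13 regions in the DR+/+ libraries and 4 and 8 in the DR-/- libraries. The median tile of the same 1.25 Mb held 17, 11, 8 and 9 regions in these lists, so the interval lay above the median tile in both DR+/+ lists and below it in both DR-/- lists. The longest stretch without a peak in any list crossed the upper border of window 1. It ran over 269 kb, from 22143072 to 22411974, and its first 56.9 kb lay inside the window. Regions in the windows stood close together, with a median distance between neighbouring midpoints of 7.0 kb in window 1 and 3.03 kb in window 2, against 20.9 kb in the interval and 25.6 kb over all chromosomes. In window 2, 40 of 63 neighbouring pairs were less than 5 kb apart (63.5%), compared with 19.1% over all chromosomes. In window 1 these were 17 of 41 (41.5%), and in the interval 5 of 27 (18.5%), close to the share over all chromosomes.

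**Figure D2:**
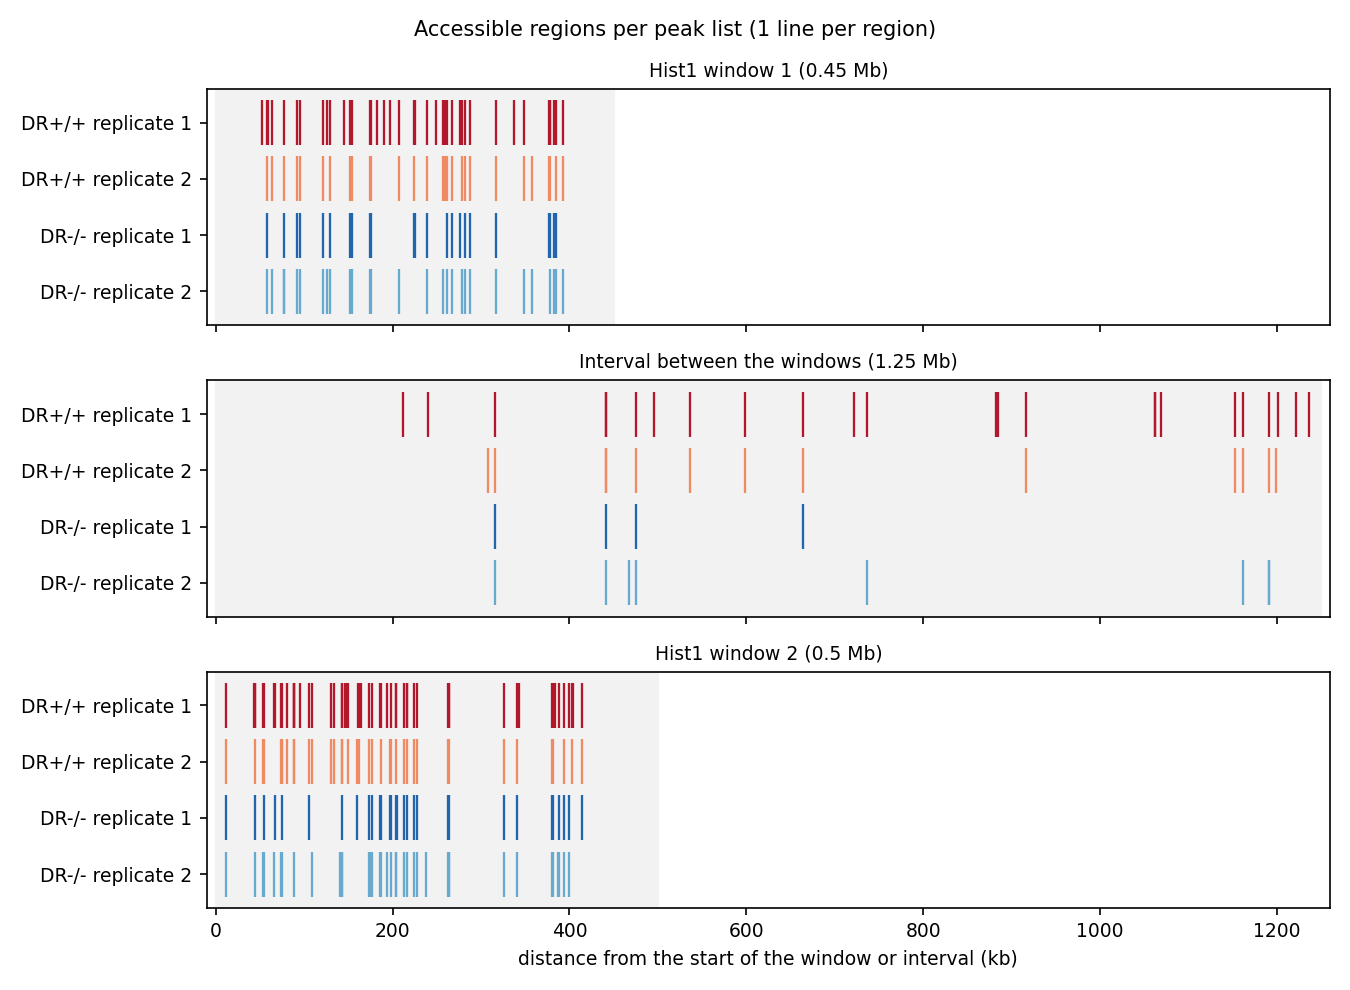
Position of every accessible region in Hist1 window 1, the interval and Hist1 window 2, as distance in kb from the start of each stretch (x axis), with 1 row per library and 1 line per region present in that list. Lines crowd in both windows in all 4 rows, and the interval shows 24, 13, 4 and 8 regions from top to bottom.

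The density of the windows relative to the interval was 5.21 and 6.68 in the DR+/+ libraries, and 17.4 and 10.7 in the DR-/- libraries. Their 95% counting intervals were 3.33 to 8.15, 3.69 to 12.1, 6.31 to 48.2 and 5.13 to 22.3. The populations did not overlap, the mean being 5.94 ± 1.04 in DR+/+ and 14.1 ± 4.77 in DR-/- (SD, n = 2 each), but the counting intervals of single libraries did. An exact two-sided permutation test gave p = 0.33, which is the smallest p that 2 against 2 libraries allow, so no library-level difference here can pass 0.05. This comparison was chosen after the values were seen. On average both stretches held fewer regions in the DR-/- lists, the interval by a larger factor than the windows. In the windows DR+/+ replicate 2 and DR-/- replicate 2 nearly matched, with 66 and 65 regions. The DR-/- lists were also shorter, with 21630 and 24432 peaks against 40933 and 26866. The sign of the difference in density ratio was the same in all 8 alternatives tried. Over the union of the lists the ratio was 4.98 (counting interval 3.28 to 7.55). It was 10.1 with the stronger 50% of each list and 9.54 with each list limited to the length of the shortest.

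The windows enclosed the dense stretches with room to spare at 3 of their 4 edges. The outermost regions inside window 1 began 51.9 kb from its start and ended 56.9 kb from its end. Window 2 began 11.0 kb before its first region, chr13:23461002-23461236, which was present in all 4 lists. The nearest region below this edge, chr13:23436847-23436954, was present in 1 list. At the upper edge the last region, chr13:23864518-23864756, was present in 3 lists and the next, chr13:24026062-24026335, outside the window, in all 4.

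Most Hist1 regions were found in both populations. No DR-/- list held 30 of the 106 (28.3%, compared with 43.1% of all regions). No DR+/+ list held 7 (6.6%, compared with 11.4% of all regions). Of the 106 regions, 38 (35.8%, 95% Wilson interval 27.4 to 45.3%) were called in all 4 lists, compared with 24.7% of all regions. A further 20 were called in 3 lists, 19 in 2 and 29 in 1. The share in a single list was 27.4%, compared with 44.1% of all regions. Of these 29, 21 were private to DR+/+ replicate 1 (19.8% of the Hist1 regions, compared with 26.9% of all) and 1 to DR+/+ replicate 2 (0.943%, compared with 7.08%). The DR-/- libraries had 2 and 5 private regions (1.89% and 4.72%, compared with 4.33% and 5.75%). DR+/+ replicate 1 contained 95 of the 106 regions (89.6%, compared with 79.3% of all regions), DR+/+ replicate 2 contained 66 (62.3%, compared with 51.1%), DR-/- replicate 1 contained 53 (50.0%, compared with 41.0%) and DR-/- replicate 2 contained 65 (61.3%, compared with 46.2%). Each list thus held a larger share of the Hist1 regions than of all regions. The order reversed among strong peaks. With the stronger 50% of each list, 9 of 69 Hist1 regions (13%) were in all 4 lists, against 24.1% of all regions.

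DR+/+-specific regions, called in each DR+/+ list and absent from each DR-/- list, numbered 8 of 106 (7.55%, Wilson interval 3.87 to 14.2%), against 9.08% of all regions. The 9.08% lies within the interval of the Hist1 share. With lists of equal length the order turned, with 5 of 87 (5.75%) against 4.93%. Window 2 held 7 of them and window 1 held 1. Of DR-/--specific regions, defined the other way round, there were 0 of 106 (Wilson interval 0 to 3.50%), against 1.38% of all regions. In the interval 5 of 28 regions (17.9%, Wilson interval 7.88 to 35.6%) were DR+/+-specific and 0 DR-/--specific. The count of 8 depended on single libraries. Without DR+/+ replicate 1 it was 10 of 91 (11.0%, against 22.8% of all regions), and without DR-/- replicate 1 it was 12 of 105 (11.4%, against 12.7%). Without DR+/+ replicate 2 it was 30 of 106 (28.3%, against 39.0% of all regions), and without DR-/- replicate 2 it was 20 of 102 (19.6%, against 15.0%). DR-/--specific Hist1 regions numbered 5 without DR+/+ replicate 1 (5.49%, against 6.56%), 5 without DR-/- replicate 1 (4.76%, against 7.5%) and 2 without DR-/- replicate 2 (1.96%, against 6.10%). Leaving out a library relaxes the definitions, since a population is then represented by 1 list.

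Apart from 1, the DR+/+-specific regions had summits of 11 to 21 reads. The pileup, the number of reads stacked at the summit, was recovered from the deposited fold and p-value, and the fold enrichment over the local level is the authors' value. The first by rank of q-value within the lists, chr13:23580648-23580855, had 6.50-fold enrichment and 21 reads in DR+/+ replicate 1 and 4.68-fold and 13 reads in DR+/+ replicate 2. The widest, chr13:23852971-23853537, measured 567 bp in replicate 1 and 150 bp in replicate 2, with 33 and 26 reads. It stood on the highest local background of the 8, 7.82 and 7.33 reads, so that its enrichment was only 3.86-fold and 3.24-fold. At chr13:23529887-23530135 the peaks were 248 and 233 bp wide with 18 and 16 reads. The remaining 5 regions, chr13:23599040-23599181, chr13:23611433-23611596, chr13:22008964-22009144, chr13:23538547-23538760 and chr13:23583963-23584123, were 142 to 214 bp long when merged. The lowest of them rested on 11 and 12 reads.

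The highest Hist1 sites were moderate by the standard of the series. Ranked by summit pileup among the 12412 regions present in all 4 lists, the highest Hist1 region was chr13:23775673-23776543 in window 2, with 32 and 25 reads in the DR+/+ libraries and 26 and 34 in the DR-/- libraries. The raw reads of the populations overlapped. As percentiles among the common regions of the same library, which allow for the different heights of the libraries, the values were 83.3 and 77.0 in DR+/+ and 88.4 and 94.6 in DR-/-, without overlap (mean 85.8). It was also the widest, at 871, 658, 698 and 827 bp in that order of libraries. The next in height lay in window 1. At chr13:21901820-21902396 the pileup was 36, 27, 26 and 26 reads, at chr13:22134767-22135204 it was 32, 31, 22 and 31 reads, and at chr13:21925297-21925807 it was 28, 30, 24 and 29 reads. On the percentile scale the populations overlapped at all 3. At chr13:21901820-21902396, for example, the percentiles were 90.0 and 82.8 in DR+/+ and 88.4 and 80.5 in DR-/-.

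The 8 highest were completed as follows. At chr13:23662967-23663528 the pileup was 32, 25, 23 and 29 reads, and at chr13:21845427-21846169 it was 31, 25, 24 and 26 reads. A narrow site, chr13:23627065-23627310, had 28, 29, 26 and 26 reads, and its summits in the 4 lists fell within 3 bp of each other. At chr13:21923846-21924230 the heights were close (28, 26, 29 and 26 reads) while the called widths ranged from 132 bp in DR+/+ replicate 1 to 385 bp in DR+/+ replicate 2, so width varied within a population. The lowest of the 38 was chr13:22066803-22067111 with 16, 15, 13 and 12 reads (mean percentile 13.8). The other low sites were chr13:21988582-21989134, chr13:21827084-21827460 and chr13:23713314-23713729, with 12 to 23 reads.

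The 5 widest regions included 3 of those above. Of the others, chr13:21878851-21879649 in window 1 measured 683 and 564 bp in the DR+/+ libraries and 476 and 684 bp in the DR-/- libraries. A wide region of window 2, chr13:23493440-23494157, measured 457, 517, 420 and 584 bp. In both, the widest value was in DR-/- replicate 2 and the narrowest in DR-/- replicate 1, so the DR-/- libraries enclosed the DR+/+ libraries.

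Hist1 sites were unusual in the level around them more than in their own height. The local background is the pileup that the authors' peak caller took as the level of the surroundings, recovered for each peak. Over the 38 Hist1 regions in all 4 lists its median was 4.82 and 4.20 reads in the DR+/+ libraries and 3.94 and 4.59 in the DR-/- libraries. Over all 12412 such regions the medians were 2.73, 2.58, 2.23 and 2.51 reads. The Hist1 background was therefore 1.76, 1.63, 1.77 and 1.83 times that of all common regions, and 35 of the 38 lay above the median of all in each library. No Hist1 peak of any list stood on the lowest background of its list. Of the interval peaks 6 of 25 and 1 of 13 did in the DR+/+ lists and 0 of 4 and 0 of 9 in the DR-/- lists. Over all peaks these were 2847 of 40933 and 1480 of 26866 in the DR+/+ lists, and 1131 of 21630 and 966 of 24432 in the DR-/- lists. At such shares, interval counts of 1 of 13, 0 of 4 and 0 of 9 say little. In tiles of 500 kb with at least 5 common regions, a median background as high as that of window 2 was reached by 2.92 to 4.01% of 823 tiles in the 4 libraries, and as high as that of window 1 by 2.31 to 3.52%.

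Summit pileups of Hist1 regions lay closer to those of all common regions. Their medians were 26 and 22 reads in the DR+/+ libraries and 20 and 22 in the DR-/- libraries, compared with 23, 19, 17 and 19 reads over all common regions. The ratios of medians were 1.13, 1.16, 1.18 and 1.16, and the ratios of means 1.01, 0.987, 1.05 and 1.05, so by the mean 1 library lay below 1. For the background the ratios of means were 1.47, 1.37, 1.43 and 1.49. With a high background under a moderate summit, fold enrichment was low, with medians of 4.38, 4.29, 4.45 and 4.33 against 6.29, 5.53, 5.60 and 5.68 over all common regions. In the 4 libraries only 2, 1, 3 and 4 of the 38 Hist1 regions lay above the median fold of all. The first region of window 2, chr13:23461002-23461236, had the highest enrichment of the 38 in every library except DR-/- replicate 2. It reached 8.75-fold and 8.20-fold in the DR+/+ libraries and 7.42-fold and 6.63-fold in the DR-/- libraries, on a background of 1.83 to 2.08 reads. In DR-/- replicate 2 the value of chr13:23775673-23776543 was higher, at 6.70-fold. The first region of window 2 was picked out after its values were seen.

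The 68 regions that were not in all 4 lists were lower and narrower, and they too stood on a raised background. In DR+/+ replicate 1, which held 57 of them, the summit pileup ranged from 11 to 33 reads with a median of 19. In DR+/+ replicate 2 the median over 28 regions was 16.5 reads (range 12 to 26), in DR-/- replicate 1 it was 17 reads over 15 regions (12 to 25), and in DR-/- replicate 2 it was 18 reads over 27 regions (12 to 27). Regions of the whole series that were not in all lists had medians of 13 or 14 reads. The median background of the Hist1 regions was 3.77, 3.54, 3.32 and 3.46 reads, compared with 2.17, 2.14, 1.81 and 2.10 reads over the series. Their median widths were 176, 157, 144 and 149 bp. Over the series the corresponding widths were 157, 155, 133 and 137 bp.

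**Figure D3:**
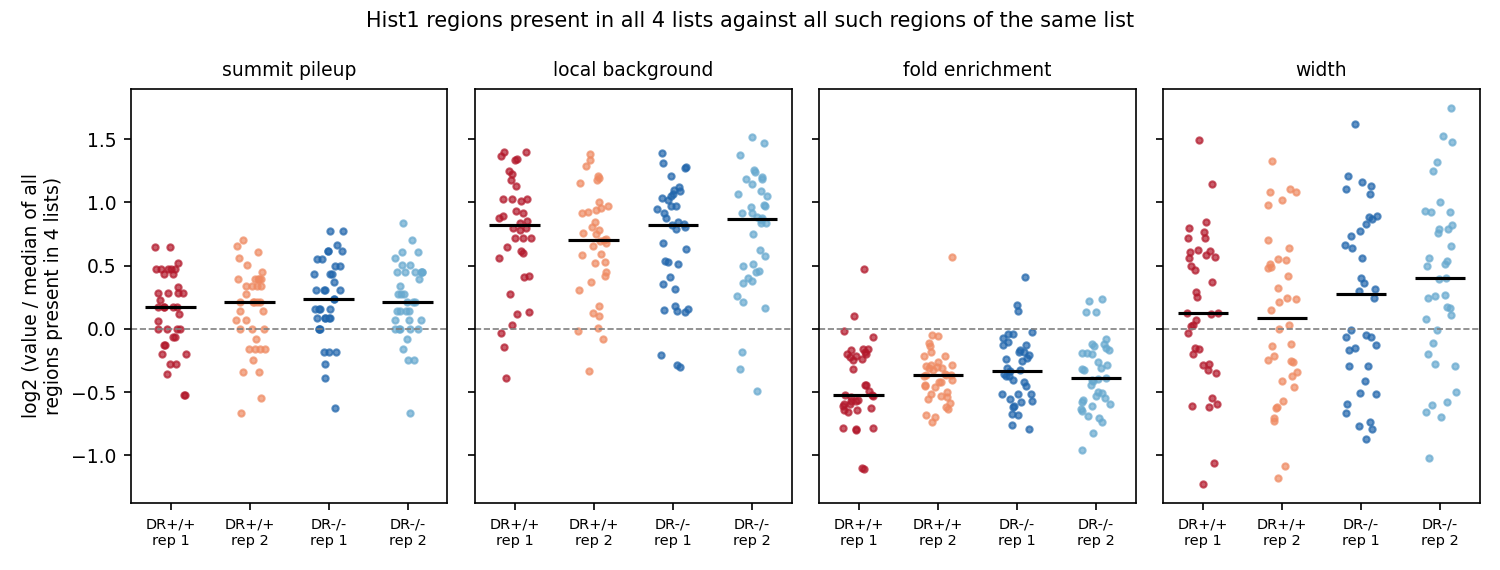
Summit pileup, local background, fold enrichment and width of the 38 Hist1 regions present in all 4 lists, each divided by the median of all 12412 such regions of the same list and shown on a log2 scale (y axis), by library (x axis). Points are regions and black bars medians. The background lies above 0 for 35 of 38 regions in each library and fold enrichment below 0 for nearly all.

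The populations were then compared in these ratios. The ratio of Hist1 to all common summit pileups was 1.14 ± 0.0194 in DR+/+ and 1.17 ± 0.0131 in DR-/- (SD, n = 2 each, exact two-sided permutation test, p = 0.67), a difference of -0.0230. With means over regions in place of medians it was -0.0475, with the smallest possible p of 0.33 in the exact permutation test. With common regions chosen anew from the remaining lists, its sign turned without DR+/+ replicate 2 (0.00148) and without DR-/- replicate 2 (0.0259). On the same 38 regions it ranged from -0.0367 to -0.00929. For the background the ratio was 1.70 ± 0.0941 in DR+/+ and 1.80 ± 0.0387 in DR-/- (exact permutation test, p = 0.33, n = 2 each). The share of each list that fell in the Hist1 windows was 0.239% and 0.257% in the DR+/+ libraries and 0.268% and 0.287% in the DR-/- libraries. These did not overlap (difference -0.0292 percentage points, exact permutation test with the smallest possible p of 0.33). With lists of equal length the difference was -0.00925 and the libraries overlapped (p = 0.67 in the exact permutation test).

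Set against other regions, the median Hist1 width was greater in both DR-/- libraries, but the size and sign of the difference depended on the libraries and regions used. The median width of the 38 regions was 337 and 279.5 bp in the DR+/+ libraries and 274.5 and 324.5 bp in the DR-/- libraries. These overlapped, but peaks of the DR+/+ lists were wider in general, with medians over all common regions of 309, 262.5, 227 and 246 bp. Relative to these, the Hist1 widths were 1.09 and 1.06 in DR+/+ and 1.21 and 1.32 in DR-/-. The difference of -0.186 had the smallest possible p of 0.33 in the exact permutation test. On the same 38 regions it stayed below 0 without any 1 library, from -0.241 to -0.132. When the common regions were chosen anew from the 3 remaining lists, it was -0.0925 without DR+/+ replicate 1, -0.105 without DR+/+ replicate 2, -0.174 without DR-/- replicate 1 and 0.0414 without DR-/- replicate 2. The last used 41 Hist1 regions of 13953 common ones.

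A fit of log2 width over all 12412 regions in limma, centred on the median of each library, called none of the 38 Hist1 regions. With Benjamini-Hochberg adjustment at 0.05 it called 0 regions in the whole series as well (percent called 0.0), while at an unadjusted p under 0.05 it named 1 Hist1 region as wider in DR+/+ (6.14% of all regions) and 2 as wider in DR-/- (3.35% of all). The median difference, DR+/+ minus DR-/-, was -0.15 over the Hist1 regions and -0.04 over all, and 28 of 38 (73.7%) were below 0 against 54.7% of all. Without centring the Hist1 median was 0.12 and that of all regions 0.22, so the Hist1 values lay below those of all regions on both scales while their sign depended on the scale. In 8 of the 38 (21.1%) both DR-/- libraries lay above both DR+/+ libraries, against 23.1% of all regions, and in 3 (7.89%) the reverse held, against 18.1%.

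The 3 regions with the smallest p show the range. They were picked after their values were seen, and none passed the adjusted test in limma. At chr13:22127445-22127972 in window 1 the width was 337 and 268 bp in the DR+/+ libraries and 490 and 492 bp in the DR-/- libraries. The centred log2 difference was -0.98 (SE 0.25, adjusted p = 0.289 in limma). Its summit pileups of 26, 24, 23 and 27 reads overlapped, but as percentiles within the library they were 64.2 and 73.6 in DR+/+ and 80.0 and 83.4 in DR-/-, so relative height separated in the same direction as width. At chr13:23712976-23713259 the widths were 211 and 203 bp against 280 and 276 bp, and the pileup percentiles, 27.6 and 27.7 against 54.1 and 58.9, separated in that direction too. The opposite held at chr13:22016591-22016974, with 378 and 375 bp in DR+/+ against 185 and 165 bp in DR-/- (0.84, SE 0.27, adjusted p = 0.396 in limma). Its pileups, 28 and 17 against 11 and 18 reads, overlapped, as did their percentiles (72.0 and 34.9 against 5.43 and 41.0).

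**Figure D4:**
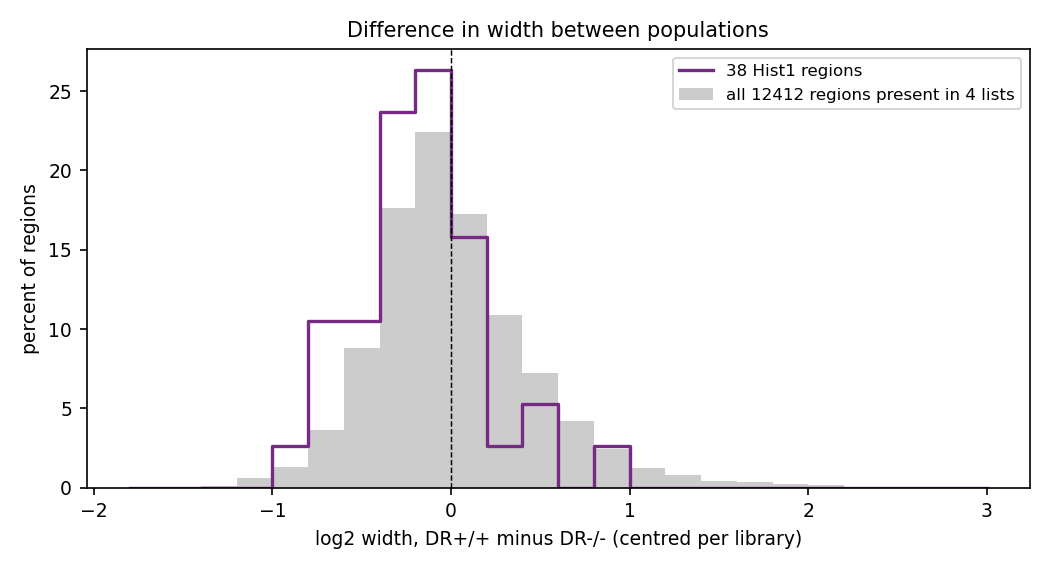
Distribution of the log2 width difference, DR+/+ minus DR-/-, after centring each library (x axis), as percent of regions (y axis), for all 12412 regions present in 4 lists (bars) and the 38 Hist1 regions (line). The Hist1 distribution lies further to the left, with 28 of 38 below 0, and spans -0.98 to 0.84.

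Summit positions varied over a longer stretch in Hist1 regions than in the median region. The strongest summits of the 4 lists spread over 128.5 bp in the median Hist1 region, from 3 to 377 bp, compared with 80 bp over all common regions. They fell within 100 bp of each other in 12 of 38 Hist1 regions (31.6%) and in 62.8% of all. Some Hist1 regions were broken into several peaks. In the DR-/- lists these were 5 of 53 regions (9.43%) in DR-/- replicate 1 and 5 of 65 (7.69%) in DR-/- replicate 2, against 4.52% and 4.70% of all regions in these lists. In the DR+/+ lists 2 of 95 (2.11%) and 3 of 66 (4.55%) were split, against 2.56% and 4.15%.

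The few interval regions present in all 4 lists had another profile. There were 3, and they stood on a low background of 1.51 to 3.01 reads. The strongest, chr13:22641404-22641910, had 32 and 28 reads in the DR+/+ libraries and 23 and 23 in the DR-/- libraries, with enrichment of 8.22-fold, 7.55-fold, 8.45-fold and 8.0-fold. At chr13:22514928-22515562 the pileups were 21, 17, 15 and 10 reads. At chr13:22675065-22675540 the widths were 415 and 388 bp in DR+/+ and 169 and 168 bp in DR-/-, without overlap, and the centred log2 difference of 0.98 did not pass (SE 0.25, adjusted p = 0.289 in limma). The sequences of the regions themselves were not read, because no mm9 genome was used here.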

How the data were processed

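Peak lists of 4 ATAC-seq libraries were used, with paired reads of 50 bp per the labels' protocols (Tn5 at 37 °C for 30 min). The build mm9 and the tools Bowtie2 2.3.0, SAMtools 0.1.19 and FastQC 0.10.1 are named by the submitters' processing notes. Not given in the sources used here are the peak caller, any Tn5 shift and how duplicate or multiply mapping reads were treated. Each list is of 1 library (40933, 26866, 21630 and 24432 peaks in DR+/+ replicates 1 and 2 and DR-/- replicates 1 and 2). Per peak the authors deposited a score, a fold enrichment (ratio) over local background, and −log10 p-values and q-values. The weakest peaks have a −log10 q-value of 1.31 to 1.32.

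The lists give no read depth. With fold as (pileup + 1)/(background + 1), and a Poisson tail as the p-value, the calculation returned whole-number pileups within 0.001 of the deposited −log10 p-value for 100% of peaks. The median peak had 15 or 16 reads. The lowest background of a list was 1.66, 1.62, 1.31 and 1.47 reads in the same order.

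Peaks sharing 1 bp were merged. A list's width in a region is the sum of its peaks there, its summit and pileup those of its highest peak. Pileup, background, fold and width were set against the regions of all 4 lists within each library before libraries were compared. Python 3.11.15, pandas 2.3.3, NumPy 2.4.6, SciPy 1.17.1, Matplotlib 3.10.9, R 4.3.3 and limma 3.58.1 were used. The code was tested on simulated data. Regions were named by rank of pileup, width, population specificity and presence in the interval. Promoters were those of the first gene per class with an entry. The members, rules and lists were chosen with earlier results of these data known. The alternatives were stronger or equal-length lists, merging over 500 bp, windows shortened by 25 kb, other centring and filters, a block for the replicate number, and leaving out each library.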

Additional observations from a re-analysis of the deposited data

How the results depend on the processing

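The labels do not say whether the numbers in the titles pair the libraries. After centring of each library, the deviations of same-numbered libraries from their group means correlated at -0.000338 for log2 width and -0.0182 for log2 pileup over 12412 regions. Centring removes any shift shared by all regions of a library, so these values cannot decide whether libraries were prepared in pairs. With the number as a block, limma called 37 regions in the whole series and 0 Hist1 regions. The differences in list share (-0.0292), pileup ratio (-0.023) and width ratio (-0.186) keep their values by construction when libraries are paired. Exact sign-flip tests over the same-numbered pairs gave p from 0.5 to 1, and 0.5 is the smallest p that 2 pairs allow. No Hist1 region passed the width test in any of the 7 alternatives, while the count over all regions ranged from 0 to 136 with a library left out (136 without DR-/- replicate 1, 44 without DR-/- replicate 2). With a library left out the lone library of its population is assumed to vary like the others.

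With the stronger 50% of each list there were 69 Hist1 regions, 9 of them in all 4 lists. Of the 69, 5 were DR+/+-specific (7.25%, against 9.05% of all regions). The density ratio was 10.1. With lists of equal length the ratio was 9.54, with 5 DR+/+-specific regions (5.75%, against 4.93% of all regions) and 2 DR-/--specific ones (2.3%, against 4.17%). With each library left out in turn, DR+/+-specific regions ranged from 10 to 30, DR-/--specific ones from 0 to 5, the pileup difference from -0.0265 to 0.0259 and the width difference from -0.174 to 0.0414. The pileup difference was above 0 without DR+/+ replicate 2 (0.00148) and DR-/- replicate 2 (0.0259). Leaving out a library also changed which regions are in all lists. On the 38 regions of all 4 lists, an alternative added after seeing the data, both differences were below 0 whichever library was left out, from -0.0367 to -0.00929 for pileup and from -0.241 to -0.132 for width. Merging over 500 bp and shorter windows moved no count by over 1.5 times. Most peaks rest on few reads, which limits differences of single regions.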
